A study of Mus musculus with 6 samples.

Results

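The Slc2a genes encode the facilitative hexose and inositol carriers, the GLUT proteins, and 10 of them were examined here in primary mouse skin cells: Slc2a1, Slc2a3, Slc2a4, Slc2a5, Slc2a6, Slc2a8, Slc2a9, Slc2a10, Slc2a12 and Slc2a13. They were chosen by gene family, with a rule that used no measured value, although earlier results of these data were known when they were chosen. They are 10 of the 12 Slc2a genes, and of the 55487 gene identifiers, in the count table. The remaining Slc2a2 and Slc2a7 are given beside them. The cells were C57BL/6 mouse skin cells labelled as endothelial cells (ECs), isolated with anti-CD31 beads from the skin of 4 to 6 mice aged 2 to 3 months and kept for at most 6 passages. The normal glucose group was held in medium with 5 mmol/L glucose and the high glucose group in medium with 20 mmol/L, each for 48 hours and each with 3 samples of polyadenylated RNA. No other agent or allele separated the groups. No sample with a second, non-metabolized sugar at the higher concentration was analysed here. The study's legends count the samples of a group by mice, whereas the labels do not tie any of the 3 to a mouse, an isolation or a culture. The P values measure the spread among these samples, which may be technical.

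GLUT proteins are membrane carriers that let sugars cross a bilayer down their gradient, without the sodium coupling used by the Slc5a carriers. GLUT1 supplies basal glucose uptake in most cells and is the main glucose carrier of brain endothelium, GLUT4 is the insulin-regulated carrier of fat and muscle, and several others sit mainly on internal membranes. Slc2a9 encodes a urate carrier and Slc2a13 encodes a proton-coupled myo-inositol carrier, so not every member moves glucose.

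The upstream sequences of 3 members are printed for reference: Slc2a13 and Slc2a9, the members that passed the test, and Slc2a1, the member with the highest level. No result on the counts was drawn from these sequences, and their activity was not tested. They are read 5′ to 3′ on the gene's strand, from RefSeq promoter entries on GRCm38.p6, and end just before the annotated start, or for Slc2a1 just before the GENCODE gene start. The Slc2a13 window is chr15:91573262-91573511, minus strand. The Slc2a1 window is chr4:119108495-119108710, plus strand. The Slc2a9 window is chr5:38483386-38483635, minus strand, and lies inside the span of longer Slc2a9 transcripts, since this gene has several annotated starts. Capitals mark matches to the GC box GGGCGG, read on either strand, and no other letters searched for matched in the printed stretches.
Slc2a13: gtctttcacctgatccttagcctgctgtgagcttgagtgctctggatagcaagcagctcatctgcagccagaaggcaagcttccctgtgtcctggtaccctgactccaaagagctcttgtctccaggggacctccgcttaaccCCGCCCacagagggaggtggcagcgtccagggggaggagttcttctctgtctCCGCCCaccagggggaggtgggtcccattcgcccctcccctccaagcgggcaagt
Slc2a1: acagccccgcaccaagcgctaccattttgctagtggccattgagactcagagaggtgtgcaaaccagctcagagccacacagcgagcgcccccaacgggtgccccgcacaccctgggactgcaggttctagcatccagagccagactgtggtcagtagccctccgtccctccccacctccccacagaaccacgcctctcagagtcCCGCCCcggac
Slc2a9: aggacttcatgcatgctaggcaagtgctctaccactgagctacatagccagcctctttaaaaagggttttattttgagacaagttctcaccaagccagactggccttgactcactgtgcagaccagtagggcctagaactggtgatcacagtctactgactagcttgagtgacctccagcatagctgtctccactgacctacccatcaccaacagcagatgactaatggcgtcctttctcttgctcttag
The search covered GGGCGG, the E-box CACGTG, its shorter core ACGTG, which every CACGTG also holds, and TATAAA. Slc2a13 held 2 GC boxes in 250 bases, Slc2a1 held 1 in the 216 bases printed, and Slc2a9 held none. The full 250 bases of the Slc2a1 entry, which reach into annotated Slc2a1 exon, held 2 GC boxes and 1 ACGTG. Of all 32851 promoter entries cut to 250 bases, 32.7% held GGGCGG, 6.02% held CACGTG, 16.6% held ACGTG and 12.4% held TATAAA, so a match to the GC box is common. RefSeq entries were matched for 10 of the 12 Slc2a genes, not for Slc2a3 and Slc2a4.

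The libraries were deep and similar in size, with 120192466 to 146881356 counts each, and 19015 genes passed the filter on low counts. The cell type label was checked against marker genes. Of 16 endothelial markers 11 could be tested, and 3 were lower and 3 higher in high glucose, beside 14.5% lower and 16.9% higher of all tested genes. Pecam1 (CD31) had 9 to 19 counts a library, Sox17 had none, and Tie1, Cldn5, Robo4 and Emcn had at most 9. Others were present, with 4457 to 8030 counts for Flt1, 1113 to 1464 for Egfl7, 586 to 833 for Plvap and 576 to 777 for Kdr. The summed level of the endothelial list was 78.8 to 81.7 counts scaled to library size (normalized CPM) in normal glucose and 63.3 to 64.3 in high glucose. Flt1, its highest gene, went from 55.3 ± 2.06 to 38.4 ± 0.154 normalized CPM (SD, n = 3 each). Cdh5, with 231 to 242 counts in normal glucose and 91 to 130 in high glucose, and Egfl7 were also called lower. Plvap, Tek and Erg were called higher, Erg on 2 to 8 counts in normal glucose and 12 to 15 in high glucose. The 20 fibroblast markers summed to 50910 to 54620 normalized CPM in normal glucose and to 86500 to 91280 in high glucose. Of them 15 were higher and 3 lower, beside the same shares of all tested genes. Col3a1, at the highest level, went from 12420 ± 651 to 32510 ± 1662 (SD, n = 3 each). It added more to the rise of the sum than any other gene of the list. Several defining endothelial markers were thus at or near 0, and the cells are called cultures from here on. In bulk RNA, fewer cells of a type and less RNA per cell cannot be told apart.

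Among the 10 carriers, the myo-inositol carrier gene Slc2a13 rose and the urate carrier gene Slc2a9 fell in high glucose, and the other 8 did not pass the test. Slc2a1, the most abundant, differed by little. The groups were compared with the quasi-likelihood test of edgeR, Benjamini-Hochberg adjustment ran over all 19015 genes, and the threshold for a call was an adjusted P of 0.05. All 10 members passed the filter and were tested. Of all tested genes 16.9% were called higher and 14.5% lower, against 1 of 10 members each way, so the family's counts were near or below the background. The median log2 fold change was -0.07 over the 10 members and 0.0062 over all tested genes. Scaling by library size in place of trimmed mean of M values (TMM) moved the median of all genes to -0.11 and the calls over all genes from 3212 higher and 2757 lower to 1819 higher and 4884 lower. In 4 of the 10 members the normalized CPM of the groups did not overlap, beside 46.4% of all tested genes: Slc2a13 and Slc2a3 were above, and Slc2a9 and Slc2a4 below.

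**Figure D1:**
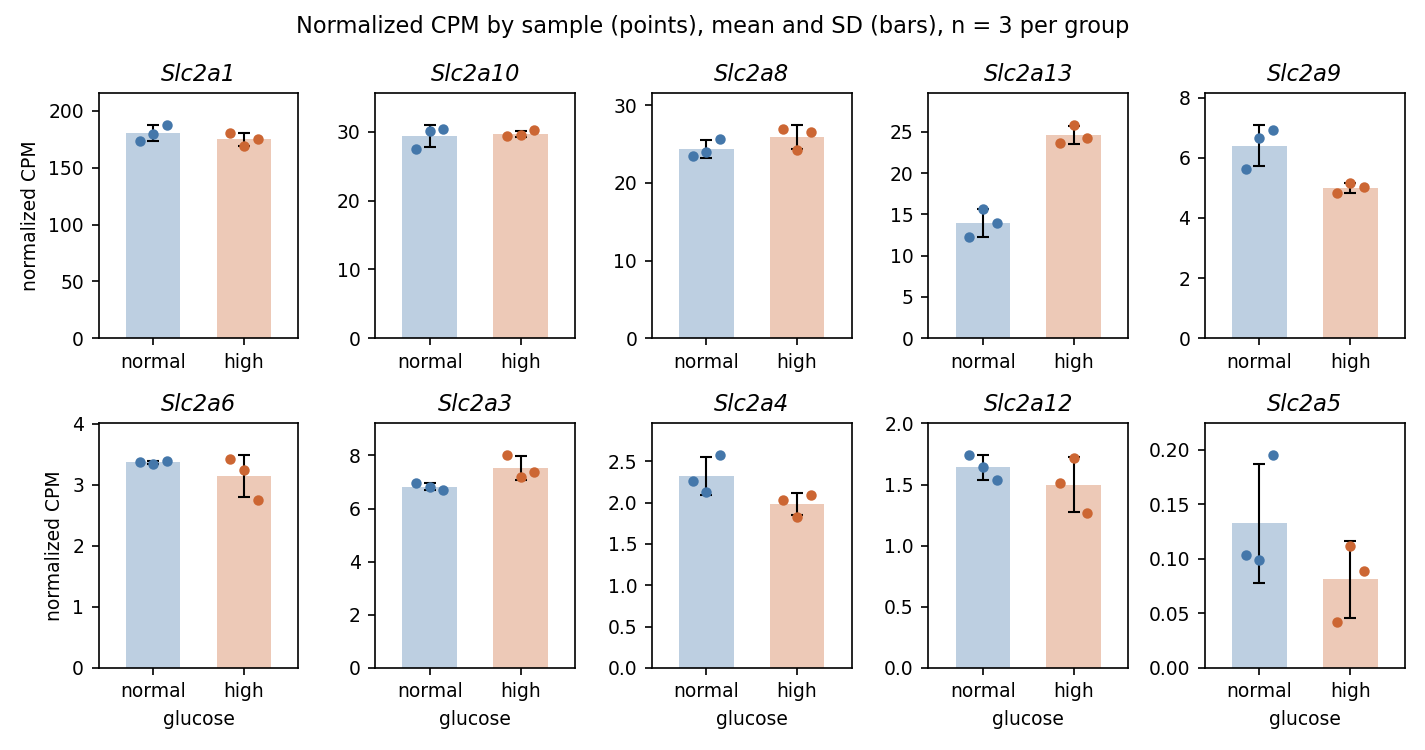
Normalized CPM (vertical axes, from 0, scaled per gene) of the 10 Slc2a members in normal and high glucose. Points are samples, bars are means and error bars are SD, with 3 samples a group. The high glucose points of Slc2a13 sit between 23.6 and 25.8, above the normal glucose points at 12.2 to 15.6, while the points of Slc2a1, Slc2a10, Slc2a8, Slc2a6, Slc2a12 and Slc2a5 overlap between the groups.

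Slc2a13 (ENSMUSG00000036298, chr15:91267696-91573261, minus strand) encodes the myo-inositol carrier HMIT. Its level was 12.2, 15.6 and 14.0 normalized CPM in the normal glucose samples, from 1530, 2213 and 1793 counts. It was 23.6, 25.8 and 24.3 normalized CPM in the high glucose samples, from 3352, 2995 and 3274 counts. Every high glucose sample was above every normal glucose sample, and the lowest of the former exceeded the highest of the latter by more than the range of either group. The mean rose from 13.9 ± 1.69 to 24.6 ± 1.09 normalized CPM (SD, n = 3 each), a fold of 1.76 and a log2 fold change of 0.82 with a standard error of 0.085 and a 95% interval of 0.627 to 1.005. The edgeR adjusted P was 4.94e-05. Among the 3212 genes called higher, 556 rose by more than Slc2a13. The gene stayed called in each of 17 refits across all genes, with log2 fold changes of 0.70 to 0.89. The level of fibroblast markers moved in the same direction between the groups, and its part in the rise was not tested.

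Slc2a9 (ENSMUSG00000005107, chr5:38349273-38503143, minus strand) encodes the urate carrier GLUT9. It was at 5.63, 6.64 and 6.92 normalized CPM in normal glucose and at 4.84, 5.16 and 5.02 in high glucose. The groups did not overlap, but the lowest normal glucose sample was close to the highest high glucose sample. The mean went from 6.40 ± 0.678 to 5.00 ± 0.162 normalized CPM (SD, n = 3 each), a log2 fold change of -0.35 with a standard error of 0.096 and a 95% interval of -0.57 to -0.14 (edgeR adjusted P = 0.0175). In percent, it fell by 21.8%. The call, but not the direction, was lost when 1 of 2 libraries was left out: the log2 fold change was -0.31 with an adjusted P of 0.0725 without the third normal glucose sample, and -0.35 with an adjusted P of 0.0666 without the first high glucose sample. Larger falls than that of Slc2a9 were seen in 1818 of the 2757 genes called lower.

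Slc2a1 (ENSMUSG00000028645, chr4:119108711-119137983, plus strand) encodes GLUT1, the carrier of basal glucose uptake. It was at 173, 180.0 and 187 normalized CPM in normal glucose and at 181, 169 and 175.0 in high glucose. The ranges overlapped, with high glucose samples falling among and just below the normal glucose samples. The log2 fold change was -0.04 with a 95% interval of -0.16 to 0.08, that is from 10.5% lower to 5.41% higher (edgeR adjusted P = 0.588). Here depth was not the limit, since each library held at least 19645 counts of Slc2a1. With scaling by library size the log2 fold change was -0.16 and the adjusted P 0.0413, under a shift of all genes by -0.11.

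Slc2a3 (ENSMUSG00000003153, chr6:122727809-122801640, minus strand) encodes GLUT3, a high-affinity glucose carrier best known from neurons. It was at 6.98, 6.82 and 6.69 normalized CPM in normal glucose and at 8.02, 7.17 and 7.37 in high glucose, with every high glucose sample above. The log2 fold change was 0.14 with a 95% interval of -0.03 to 0.31 and did not pass the test (edgeR adjusted P = 0.206). With scaling by library size it was 0.02 (edgeR adjusted P = 0.840), and with trends in GC content and length removed it was 0.04.

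Slc2a4 (ENSMUSG00000018566, chr11:69942539-69948188, minus strand) encodes GLUT4. It was at 2.27, 2.13 and 2.58 normalized CPM in normal glucose and at 2.03, 1.83 and 2.09 in high glucose, so that the groups were apart by little, with high glucose below. The log2 fold change was -0.23 with a 95% interval of -0.48 to 0.03 and an edgeR adjusted P of 0.162. With scaling by library size it was -0.34 with an adjusted P of 0.0406. Slc2a4 is a gene of fat and muscle, and the summed markers of both differed between the groups, each mainly through the highest gene of its list. The 9 adipocyte markers summed to 4492 to 4771 normalized CPM in normal glucose and 6730 to 7228 in high glucose. Lpl, the highest, went from 4213 ± 131 to 6476 ± 233 (SD, n = 3 each), and Lep had no more than 4 counts. Of 8 tested 6 were higher and none lower, beside 16.9% and 14.5% of all tested genes. Pparg and Fabp4 were not called. The 8 skeletal muscle markers summed to 5.92 to 7.18 and 2.57 to 3.00 normalized CPM. Acta1, the highest, went from 5.21 ± 0.675 to 1.62 ± 0.0563 (SD, n = 3 each). Of 3 tested 2 were lower, Acta1 and Des, beside the same share of all tested genes, and Tnnt3 was not called. Myog and Myod1 were at 0 in every library, and Ckm, Pax7 and Myh3 had at most 6 counts. The part of either list in the level of Slc2a4 was not tested.

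Slc2a8, Slc2a6 and Slc2a10 lie on chromosome 2 and encode carriers found mainly on internal membranes. Slc2a8 (GLUT8, chr2:32972990-32982083, minus strand) was at 23.4, 23.9 and 25.6 normalized CPM in normal glucose and at 26.9, 24.2 and 26.6 in high glucose. Its log2 fold change was 0.09 with a 95% interval of -0.05 to 0.23, and -0.02 with scaling by library size. Slc2a10 (GLUT10, the gene mutated in arterial tortuosity syndrome, chr2:165503787-165519917, plus strand) was at 27.6, 30.2 and 30.4 normalized CPM in normal glucose and at 29.5, 29.5 and 30.3 in high glucose. Both ranges overlapped between the groups. The log2 fold change of Slc2a10 was 0.02, took either sign across the refits and had a 95% interval of -0.11 to 0.14, the narrowest of the members after that of Slc2a1. Slc2a6 (GLUT6, a lysosomal carrier, chr2:27021363-27027998, minus strand) was at 3.37, 3.35 and 3.39 normalized CPM in normal glucose and at 3.43, 3.25 and 2.76 in high glucose. The 3 normal glucose samples of Slc2a6 were nearly equal and the high glucose samples spread around and below them. Its log2 fold change was -0.10 with a 95% interval of -0.33 to 0.13. The edgeR adjusted P was 0.301 for Slc2a8, 0.837 for Slc2a10 and 0.510 for Slc2a6.

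Slc2a12 (GLUT12, a glucose carrier described as responsive to insulin, chr10:22645011-22704285, plus strand) was at 1.74, 1.64 and 1.54 normalized CPM in normal glucose and at 1.51, 1.72 and 1.27 in high glucose. The groups overlapped, and the log2 fold change was -0.13 with a 95% interval of -0.43 to 0.17 (edgeR adjusted P = 0.499). Its exons share 407 bases, 9.61% of their length, with Tbpl1 on the opposite strand, which had 2561 to 3096 counts against 171 to 233 for Slc2a12. The strand setting of the counting is not given in the sources used here, so reads of the pair may not be fully separated. Slc2a1 shares 105 bases, 2.99% of its exon length, with Gm12868 on the opposite strand, which had 21 to 28 counts.

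Slc2a5 (GLUT5, the fructose carrier, chr4:150119283-150144169, plus strand) was near the limit of detection, where normal glucose samples had 13, 14 and 25 counts and those of high glucose 6, 13 and 12. The floor, the level that a count of 0 still allows, is 3 counts a library. The log2 fold change was -0.72 with a 95% interval of -1.73 to 0.28 and did not pass the test (edgeR adjusted P = 0.254). Slc2a2 (GLUT2, the low-affinity carrier of liver and pancreatic islets) had 22 to 49 counts and a log2 fold change of -0.38, with a 95% interval of -0.97 to 0.21. Slc2a7, the neighbour of Slc2a5 on chromosome 4, had 2 counts in the second high glucose sample and none in the other 5 libraries, and was not tested.

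**Figure D2:**
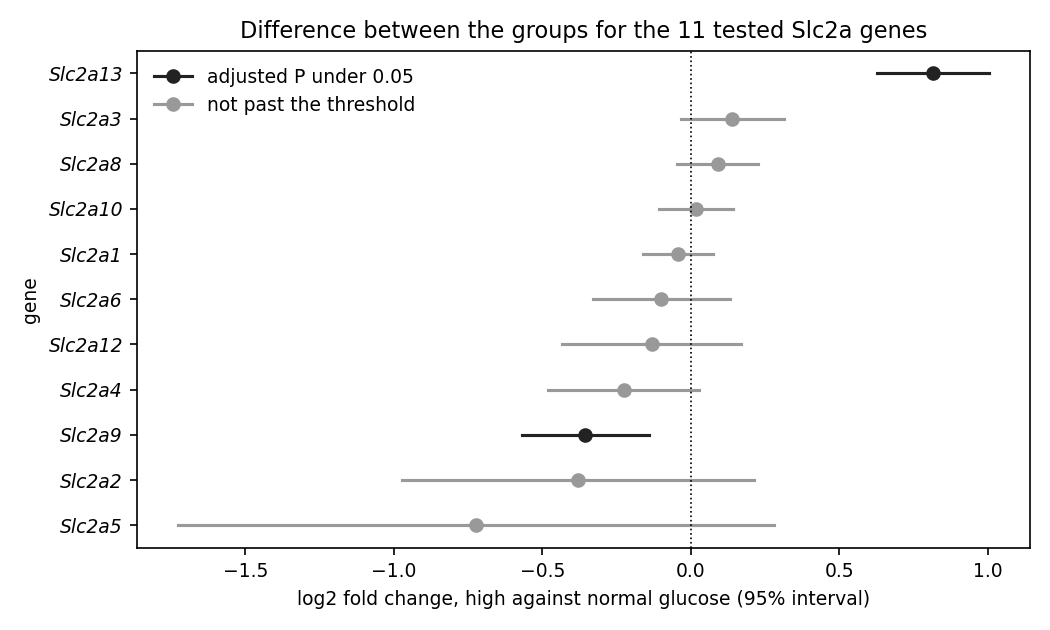
Log2 fold change of high against normal glucose (horizontal axis) for the 11 tested Slc2a genes (vertical axis, sorted by value), with points for the edgeR estimate and lines for its 95% interval. Black marks genes with an adjusted P under 0.05, which are Slc2a13 at 0.82 and Slc2a9 at -0.35. The intervals of Slc2a5 and Slc2a2, the genes with the fewest counts, are the widest.

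Levels were compared between genes only as normalized CPM per kilobase of exon. In normal glucose Slc2a1 stood at 51.4 ± 2.01 (SD, n = 3), 6.24 times the level of Slc2a10 at 8.23 ± 0.436, which was followed by Slc2a8 at 7.58 ± 0.362. Slc2a10 and Slc2a8 overlapped and cannot be ordered. Slc2a13 at 1.67 ± 0.202, Slc2a9 at 1.26 ± 0.133, Slc2a6 at 1.05 ± 0.0064, Slc2a3 at 0.943 ± 0.0204, Slc2a4 at 0.668 ± 0.066 and Slc2a12 at 0.387 ± 0.0239 came next, and no neighbours among these overlapped. Slc2a2 and Slc2a5 were lowest among the genes detected in every library, at 0.0474 ± 0.0115 and 0.039 ± 0.016, and overlapped. In high glucose Slc2a3 at 1.04 ± 0.0609, Slc2a9 at 0.984 ± 0.032 and Slc2a6 at 0.980 ± 0.107 overlapped each other and cannot be ordered on this length. Slc2a13, at 2.94 ± 0.130 in high glucose, stayed in the fourth place, but the level of Slc2a8 above it was 2.75 times its own against 4.55 times in normal glucose. With the longest transcript in place of the union of exons as length, the order of the means in normal glucose was the same. The samples of Slc2a13 at 1.87 to 2.39 and of Slc2a9 at 1.56 to 1.92 then overlapped, so these neighbours cannot be ordered on that length. In high glucose Slc2a9 then stood at 1.39 ± 0.0451 and kept the fifth place, above Slc2a3 at 1.202 ± 0.0706, without overlap.

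**Figure D3:**
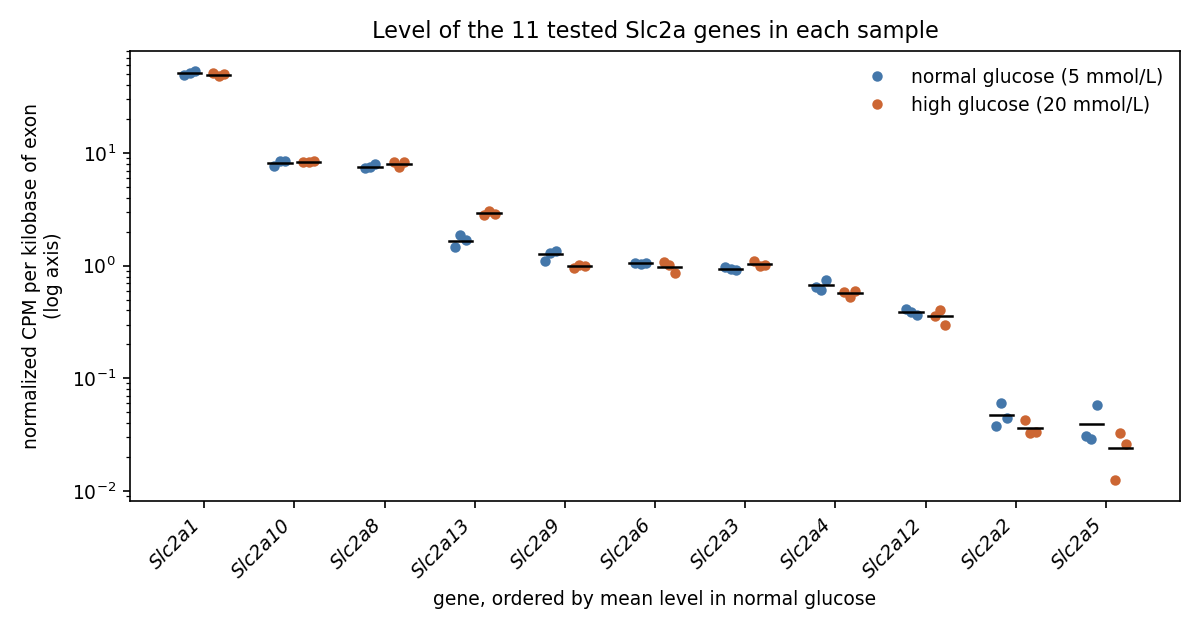
Level of the 11 tested Slc2a genes in each sample, as normalized CPM per kilobase of exon on a log axis (vertical), with genes ordered by their mean in normal glucose (horizontal). Points are samples and black lines are group means. Slc2a1 sits near 50 in all 6 samples, and Slc2a13 is the gene whose groups stand clearest apart, at 1.67 and 2.94.

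The summed level per kilobase of the 12 Slc2a genes stood at 73.2 ± 3.02 with normal and 73.2 ± 2.01 with high glucose (SD, n = 3 each), a difference smaller than the spread within either group. Slc2a1 made up 70.1% ± 0.277 of that sum in normal glucose and 68.1% ± 0.417 in high glucose, and Slc2a13 made up 2.27% ± 0.236 and 4.01% ± 0.29. These shares did not overlap between the groups, and no test was run on them. Shares of the same sum depend on each other, and the level of Slc2a1 itself overlapped between the groups. The separation of the shares thus adds no support to the values above. The ratio of Slc2a13 to Slc2a9 per kilobase was 1.32, 1.43 and 1.23 in the normal glucose samples and 2.97, 3.03 and 2.94 in the high glucose samples. The ratio of Slc2a1 to Slc2a13 went from 31.1 ± 3.21 to 17.03 ± 1.30 and did not overlap either. Both ratios hold Slc2a13, whose groups were already apart, so their separation restates the values above and adds no support.

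A list of 17 carriers from other families held genes for carriers of sugars, inositol, sugar phosphates or ascorbate. Of the 17, 11 were tested, 2 were higher and 1 lower, near the 16.9% higher and 14.5% lower of all tested genes. The median log2 fold change was -0.03. Slc5a3, the sodium-coupled myo-inositol carrier, was at 69.1, 70.9 and 61.1 normalized CPM in normal glucose and at 100.2, 103 and 92.7 in high glucose, and every high glucose sample was above. Its log2 fold change was 0.56 with a standard error of 0.069 (edgeR adjusted P = 1.56e-04). Slc5a3 and Slc2a13, which carry the same substrate, thus both rose. Slc5a3 shares 159 exon bases on the same strand with Mrps6, whose counts were 4506 to 5049 in normal glucose and 3573 to 4124 in high glucose. Slc50a1, a SWEET family sugar carrier, rose by 0.21 on the log2 scale (edgeR adjusted P = 0.0128). Slc37a2, a sugar phosphate exchanger of the endoplasmic reticulum, fell by 0.57 (edgeR adjusted P = 0.00231). The sodium-coupled glucose carrier Slc5a1 was at 0 in the normal glucose samples, had 6, 0 and 2 counts with high glucose, and was not tested.

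Of 18 genes for sugar kinases and the first steps after uptake 15 were tested, and 7 were lower and none higher, beside 14.5% lower and 16.9% higher of all tested genes. The 7 were Gpi1, Hk1, Hk2, Pgm1, Khk, Pmm1 and Mpi, and the list's median log2 fold change was -0.18. Hk1, the hexokinase that traps glucose inside most cells, went from 183 ± 5.78 to 141 ± 1.16 normalized CPM (SD, n = 3 each), a log2 fold change of -0.38 (edgeR adjusted P = 2.26e-04). Hk2, the insulin-regulated hexokinase, went from 45.9 ± 1.06 to 35.6 ± 1.69, a log2 fold change of -0.37 (edgeR adjusted P = 5.75e-04). Gpi1, the next enzyme of glycolysis, had the largest change of the tested genes of the list at -0.48 (edgeR adjusted P = 1.35e-04). The groups did not overlap in any of these 3 genes, with high glucose below. The number called dropped to 4 without the third normal glucose sample. Slc2a1, whose carrier brings in glucose, the substrate of Hk1 and Hk2, did not pass the test in the same fit.

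The 37 genes for sorting and regulation of GLUT proteins were all tested, 9 were higher and 8 lower, that is 24.3% and 21.6% beside 16.9% and 14.5% of all tested genes, and the median log2 fold change was -0.01. Txnip, an arrestin-fold protein that binds GLUT1 and GLUT4 for uptake from the surface, was at 224, 227 and 221 normalized CPM in normal glucose. In high glucose it was at 455, 474 and 473, which gave a log2 fold change of 1.06 (edgeR adjusted P = 1.70e-07). Its relatives Arrdc3 and Arrdc4 rose by 0.76 and 0.54 (edgeR adjusted P = 4.05e-06 and 2.96e-05). Txnip shares 606 exon bases with Gm15441 on the opposite strand, which had 67 to 142 counts. Tbc1d4, the Akt substrate that holds GLUT4 inside the cell, rose by 0.57 (edgeR adjusted P = 0.00143), and Insr, Sort1, Stx6, Vamp2 and Akt2 were the other genes called higher. Stom, a membrane protein that associates with GLUT1, went from 121 ± 1.79 to 77.5 ± 1.43 normalized CPM (SD, n = 3 each), a log2 fold change of -0.64 (edgeR adjusted P = 5.09e-06). Vps26a, a subunit of the retromer that returns GLUT1 to the surface, fell by 0.34 (edgeR adjusted P = 0.00140), and its partners Vps29 and Vps35 were also called lower. Rab4a, a small GTPase of recycling endosomes, fell by 0.32 (edgeR adjusted P = 0.00231), and Rhoq, Vamp3 and Rala were the other genes called lower.

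**Figure D4:**
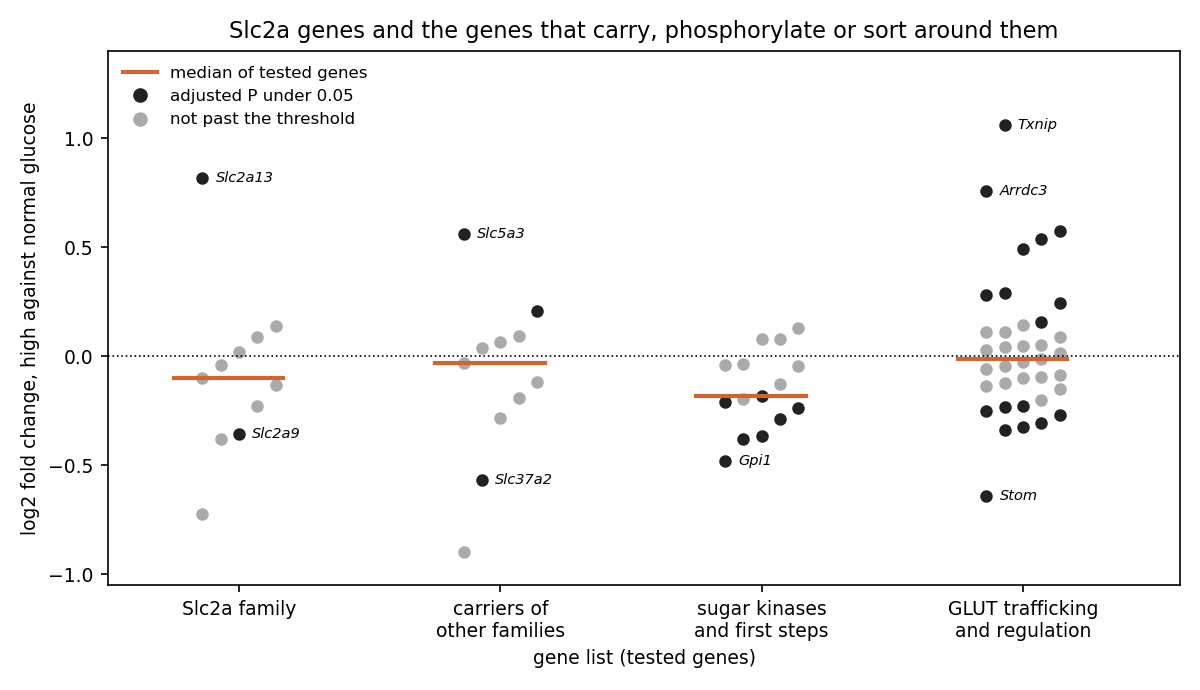
Log2 fold change of high against normal glucose (vertical axis) for each tested gene of the Slc2a family and of 3 lists around it (horizontal axis). Black points have an adjusted P under 0.05, grey points do not, and orange lines are list medians, at -0.10 for the 11 tested Slc2a genes, -0.03, -0.18 and -0.01. Most Slc2a genes are grey and near 0, whereas 7 black points of the kinase list lie below 0 and 17 of the 37 trafficking genes are black on both sides.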

How the data were processed

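RNA from 6 samples, 3 per group, was sequenced by the study's authors after poly(A) selection. Per the study's methods, reads were trimmed with Trimmomatic, aligned to GRCm38 (mm10) with HISAT2 and counted per gene with StringTie. Versions, gene annotation and strand setting are not given in the sources used here. The deposited values are whole-number counts per Ensembl gene. The labels and the methods name different RNA extraction and sequencing platforms.

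Of 55487 identifiers 55141 were matched to a symbol and position in GENCODE M21, and the other 346 held 0.034% of counts. Genes were filtered with filterByExpr (minimum count 10, minimum total 15), scaled by TMM and tested with edgeR 4.0.16 quasi-likelihood fits (R 4.3.3), without a replicate term, adjusting P values by the Benjamini-Hochberg method and calling genes under 0.05. Normalized CPM uses the TMM-scaled library size. Levels per kilobase divide it by the union of GENCODE M21 exons. Groups came from sample titles, which number replicates 1 to 3 in each group. Deviations from the group means of same-numbered samples correlated at -0.025, 0.0038 and 0.013, so the numbers were not taken as pairs. No replicate pair agreed within counting noise (lowest chi-square per degree of freedom 9.76). Library totals were 120192466 to 146881356, TMM factors 1.03 to 1.05 in normal and 0.954 to 0.966 in high glucose, and the floor was 3 counts, which covers counting error only. Intervals are 95% confidence intervals of the fit. With 3 against 3 samples, the smallest two-sided exact permutation P is 0.1, so no exact permutation test was reported. The P values given for single genes are those of the edgeR fits across all genes.

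The scripts were tested on simulated counts. Alternatives were RLE, upper quartile and library size scaling, other filters and thresholds, robust dispersion, DESeq2 1.42.0, halved counts, summed symbols, a replicate block, leaving out each sample, and, chosen after seeing the data, removal of GC content and length trends (mgcv 1.9.3). The members and gene lists were chosen with earlier results of these data known. The genes named were all Slc2a genes, up to 3 called rises and 3 called falls of each of the 3 pathway lists with a mean log2 CPM of at least 1, Hk1, Hk2, Slc5a3, Txnip and Arrdc4, and, from marker lists, Pecam1, genes at or under the floor and the highest gene of each list. Marker lists not used in the results are given by counts only, and other genes of the lists, Emcn, Cldn5, Robo4 and Lep among them, were named after their values were seen. The remaining marker lists gave, as lower and higher of those tested, 2 and 0 of 4 for lymphatic endothelium, 4 and 2 of 9 for pericytes and smooth muscle, 1 and 1 of 4 for keratinocytes, 2 and 1 of 5 for macrophages, and 0 tested for erythroid cells. Of all tested genes 14.5% were lower and 16.9% higher. Promoter sequences are RefSeq's, on GRCm38.p6.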

Additional observations from a re-analysis of the deposited data

How the results depend on the processing

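Slc2a13 stayed called higher in all 17 refits across all genes, and Slc2a9 stayed negative in all of them and called in 15. Scaling by library size gave 4884 genes lower and 1819 higher and 3 members lower, since Slc2a1 and Slc2a4 joined Slc2a9, and turned Slc2a8 to -0.024 and Slc2a10 to -0.10. Slc2a10 was also negative with upper quartile scaling (-0.024), no filter (-0.0025), halved counts (-0.0017) and GC content and length trends removed (-0.017), and ran from -0.043 to 0.033 as samples were left out in turn. An adjusted P under 0.01 left 1671 genes lower and 1946 higher, with 0 members lower. A log2 fold change of at least 1 left 542 lower and 395 higher, with 0 members lower and 0 higher. Removing GC content and length trends called 5 of the other carriers in place of 3. Leaving out samples gave 2048 to 3065 genes lower, 1988 to 3149 higher, 0 to 1 members lower and 4 to 8 kinase genes called. With the longest transcript as length, 2 of 12 genes changed place in high glucose and 0 in normal glucose. The causes were not tested. With a replicate block, 2418 genes were lower and 2909 higher, the same 2 members were called, and Slc2a9 had an adjusted P of 0.0251. Low counts limit Slc2a2, Slc2a5 and Slc2a7, and library totals do not limit Slc2a1.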

Other observations

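Genes that make or use inositol, and genes that make or carry urate, were examined after Slc2a13 and Slc2a9 had been seen to change, so they are given as values and support nothing. Of 8 inositol genes 7 were tested, 1 was higher and 3 were lower, beside 16.9% higher and 14.5% lower of all tested genes, with a median log2 fold change of -0.04. Isyna1, which makes inositol phosphate from glucose 6-phosphate, went from 88.3 ± 3.91 to 103 ± 5.26 normalized CPM (SD, n = 3 each), a log2 fold change of 0.22 (edgeR adjusted P = 0.0142). Impa1, a phosphatase that frees inositol from its phosphate, went from 37.4 ± 0.559 to 31.4 ± 0.872 normalized CPM (edgeR adjusted P = 0.00318). Inpp1, an inositol polyphosphate phosphatase, fell by 0.34 on the log2 scale (edgeR adjusted P = 0.00296), and Cdipt, which joins inositol to phospholipid, fell by 0.15 (edgeR adjusted P = 0.0487). Miox, the enzyme that breaks inositol down, had 2 counts in the first normal glucose sample and 0 elsewhere.

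Of 10 urate genes 7 were tested, 2 were higher and 1 was lower, beside the same 16.9% and 14.5%, with a median log2 fold change of 0.04. Xdh, the enzyme that makes urate, stood at 356 ± 14.6 normalized CPM with normal and 376 ± 7.99 with high glucose. Its log2 fold change was 0.08 with a 95% interval of -0.04 to 0.19 (edgeR adjusted P = 0.296). Pnp, which acts earlier in purine breakdown, rose by 0.25 on the log2 scale (edgeR adjusted P = 0.00527), and the exporter Abcc4 rose by 0.36 (edgeR adjusted P = 0.00514). Hprt, which salvages purines before they reach urate, fell by 0.40 (edgeR adjusted P = 0.00904). The urate exporter Abcg2 had a log2 fold change of -0.06 with a 95% interval of -0.19 to 0.07 (edgeR adjusted P = 0.485). Slc22a12 and Slc17a3 had 0 counts in every library.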
